A study of Homo sapiens with 12 samples.

Results

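The 52 genes described here encode proteins of the kinetochore, the spindle checkpoint and the kinases that drive mitosis, with their partners at the centromere and on the spindle. They were taken by gene symbol, from a list chosen with earlier results of these data known. On the array 86 probes carried one of these symbols, of the 48104 probes and 20046 named genes in the series. A probe was kept for testing where its signal stood above the array's background (detection p under 0.05) on 3 or more arrays, which held for 79 of the 86. Each gene is represented by the kept probe with the highest mean. All 52 genes entered the test, among 13577 genes tested.

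The kinetochore is the protein assembly that joins a chromosome to the microtubules of the spindle. It is built on nucleosomes that hold the histone variant CENP-A, with an inner layer (the constitutive centromere-associated network, CCAN) and an outer layer (the KNL1, MIS12 and NDC80 complexes, together called KMN) that grips the microtubule. Kinetochores without microtubules send a checkpoint signal that keeps CDC20 from switching on the anaphase-promoting complex (APC/C), the ubiquitin ligase whose activity releases sister chromatids. Most of these genes are transcribed mainly in late S phase, G2 and mitosis, so their RNA is plentiful in dividing cell lines and scarce in resting ones.

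RNA came from HCC827, a lung adenocarcinoma cell line with an activating mutation of the EGFR gene, and was measured on 12 Illumina bead arrays. The 4 groups of 3 arrays were gefitinib monoculture, DMSO monoculture, co-culture with gefitinib and co-culture without it. Gefitinib, an inhibitor of the EGFR kinase, was used at 0.5 µM after a first 24 h, and RNA was taken after a further 48 h. In both co-culture groups MRC-5 cells, a line of normal human lung fibroblasts, faced the HCC827 cells across an insert membrane with 1 µm pores. All arrays thus share the same cell line, and DMSO is named as the vehicle for the monoculture only. Whether gefitinib remained in the medium during the last 48 h is not stated by the labels. They do not say that replicates came from separate cultures, so the p-values measure only the spread between these arrays.

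Per array, 43.4% to 46.5% of probes were detected, and arrays of 1 group correlated with r between 0.986 and 0.991 across the genes tested. The median scanner intensity was 106 to 110 on the co-culture arrays and 99.1 to 103 on the monoculture arrays. Co-culture titles also carry a suffix that monoculture titles lack, so co-culture and any difference in handling between these sets cannot be told apart, whereas each effect of gefitinib lies within 1 set. A difference between these effects is again one between the sets and shares this limit. All 12 epithelial marker genes were detected on every array, apart from CLDN4 on 1 co-culture array. The summed linear level of these 12 was 30752 to 31318 in gefitinib monoculture and 30918 to 31838 in DMSO monoculture. It was lower with fibroblasts, at 25077 to 26135 in gefitinib co-culture and 28461 to 29624 in co-culture without drug. Of 15 fibroblast markers, POSTN, THY1, PDGFRA, PDGFRB and FAP were detected on no array, and 7 could be tested. The summed linear level of those 7 was 752 to 896 in gefitinib monoculture, 367 to 434 in DMSO monoculture, 321 to 350 in gefitinib co-culture and 290 to 390 in co-culture without drug.

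Gefitinib lowered nearly the whole set in cells grown alone. In gefitinib monoculture against DMSO monoculture, 50 of the 52 genes fell and 0 rose. Over all genes tested, 14.5% fell and 16.9% rose in the same comparison, 31.5% in all (adjusted p under 0.05 by limma, Benjamini-Hochberg over 13577 genes). Under median scaling, used instead of quantile normalization, the split over all genes was 2347 lower and 1688 higher, in place of 1974 and 2301. The median log2 change of the 52 genes was -1.89, a level 3.70-fold lower, against 0.01 for all genes tested. The fall was at least 2-fold in 48 genes and at least 4-fold in 22. On all 52 genes the 3 gefitinib arrays lay below the 3 DMSO arrays, whereas the groups did not overlap on 46.4% of all genes. The changes ran between NEK2 at -2.65 ± 0.086 and NSL1 at -0.22 ± 0.11 (SE, n = 3 arrays per group). The genes that did not pass the test were MIS12 (adjusted p = 0.106) and NSL1 (adjusted p = 0.155), both parts of the MIS12 complex. In these bulk samples, fewer cells in mitosis and less RNA of these genes per cell cannot be told apart. The summed fibroblast markers given above were higher in gefitinib monoculture, where no fibroblasts were present by the labels, and COL1A1, COL5A1 and LUM of that list rose. Their part in the fall was not tested.

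**Figure D1:**
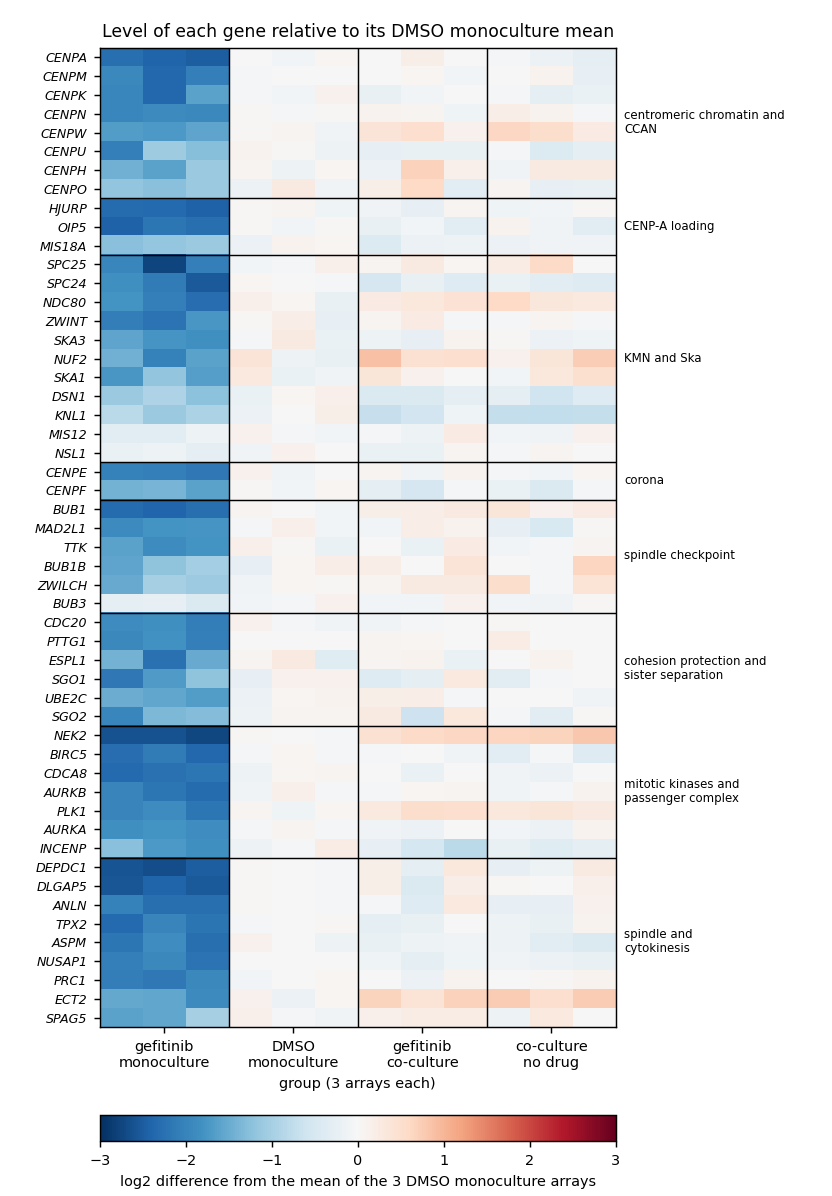
Level of each of the 52 genes (rows, grouped by role) on each of the 12 arrays (columns), as the log2 difference from the mean of the 3 DMSO monoculture arrays, blue below and red above. The 3 gefitinib monoculture arrays are blue in nearly every row, with array medians between -1.91 and -1.86, whereas the 6 co-culture arrays lie near 0, with array medians between -0.08 and 0.07.

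Promoters were searched for a pair of known cell cycle elements, and some are shown here because the members moved together. The cell cycle genes homology region (CHR, searched as TTTGAA) is bound by MuvB complexes, and the CCAAT box (searched as CCAAT) by the factor NF-Y. Both were searched on both strands in the 300 bases that run between 250 before and 50 after the annotated start, with sequences from RefSeq on GRCh38.p14. The table held 42 of the 52 genes, and CENPH, CENPM, BUB3, TTK, KNL1, MIS18A, AURKA, BIRC5, TPX2 and UBE2C had no entry in it. Below, each stretch ends 50 bases after the start, reads 5′ to 3′ on the gene's strand, and has CHR and CCAAT matches of either strand in capitals (a match on the other strand reads TTCAAA or ATTGG). The first pair is NEK2 and DEPDC1, the genes with the lowest log2 changes. NEK2 lies at chr1:211675572-211675741 on the minus strand and DEPDC1 at chr1:68497033-68497202 on the minus strand.
NEK2: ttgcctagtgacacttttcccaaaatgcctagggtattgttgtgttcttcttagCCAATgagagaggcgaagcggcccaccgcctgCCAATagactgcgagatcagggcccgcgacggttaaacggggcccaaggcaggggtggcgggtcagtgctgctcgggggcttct
DEPDC1: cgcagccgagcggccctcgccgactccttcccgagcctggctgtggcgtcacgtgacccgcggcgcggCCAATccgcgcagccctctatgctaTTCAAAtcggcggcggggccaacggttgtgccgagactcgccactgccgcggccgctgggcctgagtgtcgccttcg
The NEK2 stretch had 2 CCAAT boxes and no match to TTTGAA, whereas that of DEPDC1 had 1 of each.

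The next promoters belong to CENPA (chr2:26785916-26786105, plus strand), CDCA8 (chr1:37692396-37692565, plus strand), PLK1 (chr16:23678769-23678938, plus strand) and PRC1 (chr15:90994486-90994655, minus strand). They are shown because a CHR lies close to the start in each.
CENPA: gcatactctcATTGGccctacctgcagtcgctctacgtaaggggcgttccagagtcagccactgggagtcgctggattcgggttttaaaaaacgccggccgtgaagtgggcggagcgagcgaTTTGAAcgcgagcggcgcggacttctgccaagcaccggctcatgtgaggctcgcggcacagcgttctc
CDCA8: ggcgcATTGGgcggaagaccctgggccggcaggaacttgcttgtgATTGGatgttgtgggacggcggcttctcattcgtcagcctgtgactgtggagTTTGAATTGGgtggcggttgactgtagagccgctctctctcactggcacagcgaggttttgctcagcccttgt
PLK1: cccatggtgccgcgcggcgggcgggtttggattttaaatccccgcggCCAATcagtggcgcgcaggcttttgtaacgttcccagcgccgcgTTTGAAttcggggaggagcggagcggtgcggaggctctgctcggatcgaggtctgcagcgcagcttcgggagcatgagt
PRC1: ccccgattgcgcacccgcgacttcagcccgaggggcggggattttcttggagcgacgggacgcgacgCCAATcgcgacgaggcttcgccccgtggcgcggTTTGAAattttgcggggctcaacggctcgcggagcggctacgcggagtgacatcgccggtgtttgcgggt
In CDCA8 the CHR and a CCAAT box of the other strand overlap and read as a single run of capitals.

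The last promoters set ANLN (chr7:36389742-36389911, plus strand) and NUSAP1 (chr15:41332761-41332930, plus strand), which fell by over 2 on the log2 scale, beside MIS12 (chr17:5486254-5486423, plus strand) and NSL1 (chr1:212791728-212791897, minus strand), which did not pass the test.
ANLN: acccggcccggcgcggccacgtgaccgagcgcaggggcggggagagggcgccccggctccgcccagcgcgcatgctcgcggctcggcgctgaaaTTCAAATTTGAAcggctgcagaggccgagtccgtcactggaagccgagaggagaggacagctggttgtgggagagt
NUSAP1: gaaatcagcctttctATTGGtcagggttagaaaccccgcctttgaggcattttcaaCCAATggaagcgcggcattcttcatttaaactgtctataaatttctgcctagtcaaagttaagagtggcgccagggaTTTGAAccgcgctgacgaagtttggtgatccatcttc
MIS12: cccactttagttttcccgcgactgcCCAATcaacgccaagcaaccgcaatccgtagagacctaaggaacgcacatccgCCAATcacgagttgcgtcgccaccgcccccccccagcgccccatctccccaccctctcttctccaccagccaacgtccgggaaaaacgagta
NSL1: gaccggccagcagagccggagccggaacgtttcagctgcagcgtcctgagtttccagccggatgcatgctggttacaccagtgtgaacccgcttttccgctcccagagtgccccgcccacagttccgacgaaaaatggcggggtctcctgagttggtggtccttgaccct
ANLN had a CHR on each strand, directly next to each other, and no CCAAT box. MIS12 had 2 CCAAT boxes and no CHR, and NSL1 had neither. This contrast does not hold gene by gene across the set. CENPE, too, had neither element and changed by -2.07, whereas CENPO had a CHR and changed by -1.18.

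A CHR was found in 26 of the 42 promoters (61.9%), against 10.5% of the promoters of the 10704 genes tested that had an entry and 15.4% of all 27305 entries. CCAAT boxes were present in 31 of the 42 (73.8%), against 36.8% of the promoters of the genes tested. At least 2 CCAAT boxes were found in 47.6% and both elements in 42.9% of the 42, against 13.5% and 4.41% for the genes tested. The 211 bases that the OIP5 and NUSAP1 promoters share, on opposite strands, were counted for both genes. Within the set, genes with a CHR had a median log2 change of -1.97 in gefitinib monoculture (n = 26, range -2.58 to -1.18). Genes without one had a median of -1.81 (n = 16, range -2.65 to -0.22). With a CCAAT box the median was -2.00 (n = 31, range -2.65 to -0.28). Without one it was -1.53 (n = 11, range -2.18 to -0.22). For both elements the ranges with and without a match overlapped widely, and the differences in median were not tested. A match is a description of the letters only, and binding was not measured.

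**Figure D2:**
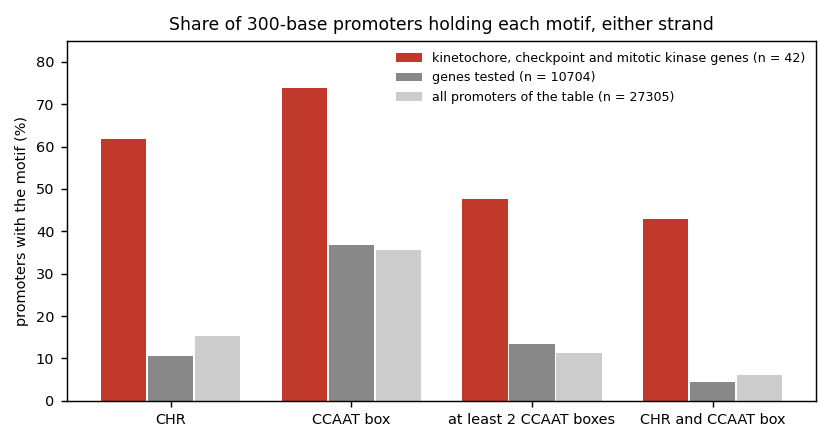
Percentage of 300-base promoters that hold each motif on either strand, for the 42 genes of the set with an entry, for the 10704 genes tested and for all 27305 entries of the table. Bars of the set stand at 61.9% for the CHR and 73.8% for the CCAAT box, above the 10.5% and 36.8% of the genes tested.

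Genes of centromeric chromatin and the CCAN fell in 8 of 8 cases, with a median log2 change of -1.80. CENPA, the histone variant that marks the centromere, had normalized log2 levels of 7.88, 7.75 and 7.67 in gefitinib monoculture, against 10.16, 10.07 and 10.21 in DMSO monoculture. Its levels were 10.15, 10.33 and 10.12 in gefitinib co-culture, against 10.12, 9.98 and 9.87 in co-culture without drug. The gefitinib monoculture arrays lay far below all 9 others, a change of -2.38 ± 0.10 against DMSO (adjusted p = 6.13e-08). CENPN, which binds the CENP-A nucleosome, read 8.79, 8.86 and 8.83 with gefitinib alone, against 10.80, 10.70 and 10.79 with DMSO. In co-culture it read 10.88, 10.83 and 10.63 with gefitinib, against 10.95, 10.87 and 10.73 without. Again only the gefitinib monoculture was low, at -1.93 ± 0.096 (adjusted p = 9.83e-08). CENPM and CENPK, of the complex that bridges CENP-A chromatin and the outer layer, changed by -2.11 ± 0.13 and -1.98 ± 0.17. CENPH of the same complex, CENPW, the histone-fold partner of CENP-T, and CENPU and CENPO, of the complex that recruits PLK1, changed by between -1.66 and -1.18. With the mean of its probes CENPH changed by -0.71 (adjusted p = 0.00371).

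The 3 loading factors of CENP-A fell as well. HJURP, the chaperone that deposits CENP-A after mitosis, read 7.05, 7.03 and 6.93 in gefitinib monoculture, against 9.39, 9.44 and 9.24 in DMSO monoculture. It read 9.24, 9.10 and 9.44 in gefitinib co-culture, against 9.22, 9.28 and 9.39 in co-culture without drug. The monoculture difference was -2.35 ± 0.11 (adjusted p = 6.52e-08), and the co-culture groups overlapped. OIP5 and MIS18A, subunits of the MIS18 complex that guides HJURP to the centromere, changed by -2.29 ± 0.12 and -1.18 ± 0.11.

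In the outer kinetochore, 9 of 11 genes of KMN and of the Ska complex fell, with a median of -1.69. In the NDC80 complex, the main microtubule coupler, the changes were SPC25 at -2.25 ± 0.20, SPC24 at -2.15 ± 0.15, NDC80 at -2.05 ± 0.14 and NUF2 at -1.69 ± 0.22. NDC80 itself read 5.64, 5.39 and 5.15 in gefitinib monoculture, against 7.60, 7.50 and 7.23 in DMSO monoculture. With fibroblasts it read 7.69, 7.75 and 7.86 with gefitinib, against 8.05, 7.78 and 7.74 without. SPC25 was detected on 2 of the 3 gefitinib monoculture arrays, and with the mean of its probes it changed by -1.63. ZWINT, a KNL1 partner, changed by -2.01 ± 0.14, and SKA3 and SKA1, which hold kinetochores on shortening microtubules, by -1.73 ± 0.14 and -1.53 ± 0.20.

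The MIS12 complex and KNL1 changed less. DSN1, the subunit that ties the MIS12 complex to the inner kinetochore, read 6.45, 6.63 and 6.33 in gefitinib monoculture, against 7.36, 7.61 and 7.69 in DMSO monoculture, a change of -1.08 ± 0.13 (adjusted p = 5.76e-05). MIS12 read 9.59, 9.59 and 9.79 with gefitinib alone, against 10.07, 9.89 and 9.85 with DMSO. NSL1 read 9.70, 9.76 and 9.61 with gefitinib alone, against 9.79, 10.04 and 9.89 with DMSO. For both genes the groups lay next to each other without overlap, and the 95% interval of the change was -0.55 to -0.01 for MIS12 and -0.45 to 0.02 for NSL1. Under median scaling both passed the test (adjusted p = 0.0266 and 0.0273). KNL1, the scaffold that carries the checkpoint proteins, read 4.66, 4.36 and 4.52 with gefitinib alone, against 5.29, 5.49 and 5.64 with DMSO. It changed by -0.96 ± 0.15 (adjusted p = 0.000481) and was detected on only 1 of the 3 gefitinib monoculture arrays, so its level there lies near the background.

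Both genes of the corona, the outermost and transient layer, fell. CENPE, a kinesin that moves chromosomes to the spindle equator, read 6.92, 6.89 and 6.80 in gefitinib monoculture, against 9.06, 8.84 and 8.93 in DMSO monoculture (-2.07 ± 0.099, adjusted p = 7.72e-08). In co-culture CENPE read 9.03, 8.83 and 9.06 with gefitinib, against 8.90, 8.86 and 9.01 without, and these groups overlapped. CENPF, a large coiled-coil protein, changed by -1.47 ± 0.14 in monoculture.

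All 6 checkpoint genes fell, with a median of -1.52 and a wide range. BUB1, a kinase that recruits other checkpoint proteins, read 7.31, 7.24 and 7.35 in gefitinib monoculture, against 9.70, 9.62 and 9.55 in DMSO monoculture. It read 9.80, 9.82 and 9.89 in gefitinib co-culture, against 9.98, 9.74 and 9.87 in co-culture without drug. The fall in monoculture was 5.01-fold (-2.33 ± 0.090, adjusted p = 4.8e-08). MAD2L1, which captures CDC20, read 8.23, 8.33 and 8.35 with gefitinib alone, against 10.06, 10.29 and 10.04 with DMSO (-1.83 ± 0.13). TTK, the kinase that starts the checkpoint signal, changed by -1.76 ± 0.14. BUB1B, a subunit of the inhibitor of the APC/C, changed by -1.27 ± 0.21, and ZWILCH, which helps bring MAD1 and MAD2 to kinetochores, by -1.20 ± 0.17.

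BUB3, the adaptor that places BUB1 and BUB1B on KNL1, had the smallest change that passed the test. It read 11.26, 11.29 and 11.09 in gefitinib monoculture, against 11.46, 11.49 and 11.66 in DMSO monoculture. The change was -0.32 ± 0.10 (adjusted p = 0.0304), with no overlap between the groups. This call ended without DMSO array 2 or 3 and without gefitinib array 1 or 3 (adjusted p = 0.0558 to 0.115), when its 4 kept probes were averaged (-0.20, adjusted p = 0.136) and when only these groups were fitted (adjusted p = 0.0507). One of those probes, detected on 3 of the 12 arrays, had the opposite sign at 0.29.

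Genes of cohesion protection and sister separation fell in 6 of 6 cases and varied little among themselves, between -1.94 and -1.54. CDC20, the coactivator of the APC/C that the checkpoint restrains, read 11.42, 11.47 and 11.24 in gefitinib monoculture, against 13.44, 13.29 and 13.22 in DMSO monoculture. It read 13.22, 13.25 and 13.32 in gefitinib co-culture, against 13.35, 13.32 and 13.34 in co-culture without drug. The monoculture change was -1.94 ± 0.092 (adjusted p = 7.72e-08). PTTG1 (securin), the inhibitor of separase, changed by -1.93 ± 0.093, and ESPL1 (separase), the protease that cuts cohesin, by -1.73 ± 0.22. SGO1 and SGO2, the shugoshins that shield centromeric cohesin, changed by -1.69 ± 0.24 and -1.54 ± 0.25. UBE2C, the ubiquitin-conjugating enzyme of the APC/C, changed by -1.57 ± 0.11.

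The mitotic kinases and the chromosomal passenger complex fell in 7 of 7 cases with a median of -2.15, and 5 of them by at least 4-fold. NEK2, a kinase that separates the centrosomes, read 6.93, 6.94 and 6.81 in gefitinib monoculture, against 9.59, 9.53 and 9.52 in DMSO monoculture. It read 10.01, 10.12 and 10.17 in gefitinib co-culture, against 10.20, 10.22 and 10.35 in co-culture without drug. Its fall in monoculture was 6.30-fold, and no other gene of the set had a lower log2 change (adjusted p = 2.75e-08). With the mean of its probes NEK2 changed by -2.25, above DEPDC1 at -2.58.

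PLK1, a kinase with tasks at centrosomes, kinetochores and the midbody, read 5.80, 5.89 and 5.61 with gefitinib alone, against 7.85, 7.64 and 7.83 with DMSO (-2.00 ± 0.11, adjusted p = 1.46e-07). In co-culture PLK1 read 8.07, 8.30 and 8.26 with gefitinib, against 8.08, 8.13 and 8.04 without. AURKA, the kinase of spindle poles, read 9.61, 9.67 and 9.59 with gefitinib alone, against 11.42, 11.54 and 11.43 with DMSO (-1.84 ± 0.097). For both kinases the gefitinib monoculture arrays lay below all others, and the co-culture groups overlapped.

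The passenger complex corrects faulty attachments and consists of the kinase AURKB, the scaffold INCENP, borealin (CDCA8) and survivin (BIRC5). AURKB read 8.48, 8.28 and 8.15 with gefitinib alone, against 10.36, 10.62 and 10.39 with DMSO (-2.15 ± 0.11, adjusted p = 1.46e-07). BIRC5 and CDCA8 changed by a like amount, -2.25 ± 0.11 and -2.25 ± 0.10. INCENP changed by -1.61 ± 0.18 on its brighter probe, whereas its other kept probe, detected on 4 of 12 arrays, gave -0.11. With the mean of both probes the change of INCENP was -0.86.

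All 9 genes of the spindle and of cytokinesis fell, with a median of -2.10, 7 of them by at least 4-fold. DEPDC1, a gene overexpressed in many tumours, read 6.12, 6.04 and 6.24 in gefitinib monoculture, against 8.74, 8.74 and 8.66 in DMSO monoculture (-2.58 ± 0.16, adjusted p = 4.97e-07). DLGAP5, a microtubule-binding protein of the spindle, read 7.24, 7.41 and 7.29 with gefitinib alone, against 9.86, 9.83 and 9.76 with DMSO (-2.50 ± 0.15, adjusted p = 3.5e-07). In both genes the groups stood more than 2 log2 units apart. The scaffold of the cleavage furrow ANLN, the AURKA activator TPX2, the spindle pole protein ASPM, the microtubule-binding NUSAP1 and the midzone bundler PRC1 changed by between -2.18 and -2.05. ECT2, which activates RhoA for cytokinesis, read 7.84, 7.80 and 7.45 with gefitinib alone, against 9.50, 9.18 and 9.42 with DMSO (-1.67 ± 0.14, adjusted p = 4.44e-06). SPAG5 (astrin), which steadies attached kinetochores, changed by -1.39 ± 0.17 and was detected on 1 of the 3 gefitinib monoculture arrays.

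Genes of the same machinery outside the set were described from 5 further lists. Of 21 other tested centromere, kinetochore and checkpoint genes 13 fell and 0 rose, with a median of -0.49. The lowest were the CCAN subunit CENPI at -1.62 ± 0.12, the checkpoint remodeller TRIP13 at -1.59 ± 0.097 and the dynein adaptor SPDL1 at -1.35 ± 0.14. CENPT (0.34 ± 0.14), MAD1L1 (0.14 ± 0.26) and CENPC (-0.04 ± 0.27), the highest of that list, did not pass the test. Of 32 other mitotic regulators 28 fell and 0 rose, with a median of -1.95. CDCA3 at -2.52 ± 0.12 and the kinesins KIF2C at -2.42 ± 0.087 and KIF20A at -2.40 ± 0.11 were the lowest. The kinases WEE1 (0.33 ± 0.15), PLK2 (0.24 ± 0.15) and PLK3 (0.22 ± 0.19) had the highest values and did not pass.

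Of 15 genes of the APC/C and its regulators other than CDC20, 4 fell and 2 rose, with a median of -0.13, a share near the 31.5% of all genes tested. FBXO5, an inhibitor of the APC/C, changed by -1.49 ± 0.098, the subunit ANAPC15 by -0.57 ± 0.14 and the coactivator FZR1 by -0.40 ± 0.20, which did not pass. Of its subunits, ANAPC13 (0.47 ± 0.10) and CDC16 (0.25 ± 0.088) rose, whereas ANAPC2 (0.68 ± 0.37) did not pass. Of 16 cohesin and condensin genes 9 fell and 1 rose, with a median of -0.49. The condensin subunits NCAPG (-2.28 ± 0.093), NCAPD2 (-1.72 ± 0.097) and SMC4 (-1.69 ± 0.097) were lowest. The cohesin loader subunit MAU2 rose (0.66 ± 0.097), and the cohesin release factor WAPL (0.26 ± 0.20) and the cohesin subunit STAG2 (0.23 ± 0.20) did not pass. Of 11 genes of MuvB, DREAM and FOXM1, the factors that act at CHR elements, 6 fell and 0 rose, with a median of -0.47. FOXM1, an activator of mitotic genes, changed by -2.46 ± 0.16, the MuvB subunit LIN54 by -0.88 ± 0.18 and TFDP1 by -0.85 ± 0.093. RBL2 (p130; 0.33 ± 0.12), RBBP4 (0.28 ± 0.16) and LIN37 (0.08 ± 0.19), the highest of the list, did not pass.

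**Figure D3:**
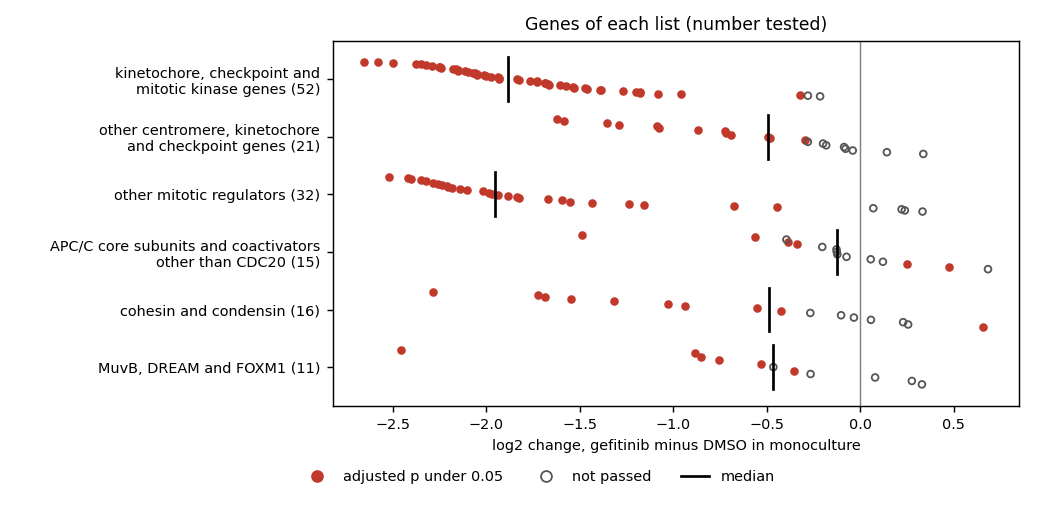
Log2 change of each tested gene in gefitinib minus DMSO monoculture (horizontal axis), for the 52 genes and the 5 further lists (rows, number tested in brackets), filled where the adjusted p was under 0.05, with the median as a bar. The medians lie at -1.89 for the 52 genes, -1.95 for other mitotic regulators and between -0.49 and -0.13 for the other 4 lists.

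In co-culture gefitinib changed none of the 52 genes by the test. In gefitinib co-culture against co-culture without drug, 0 genes fell and 0 rose by limma, and 1, MAD2L1, had an unadjusted p under 0.05. Over all genes tested, 1.5% passed in this comparison, 0.884% downward and 0.619% upward. The median log2 change of the 52 genes was 0.002, and single genes ran between -0.24 ± 0.18 for INCENP and 0.29 ± 0.13 for MAD2L1 (adjusted p = 0.416). With median scaling the split over all genes was 113 lower and 50 higher, in place of 120 and 84. The 95% interval of every one of the 52 genes excluded a 2-fold change in either direction, and in 47 it also excluded a fall of 0.5 on the log2 scale. For KNL1 the interval says little about a fall, since its level in co-culture without drug (mean 4.75) was already near background. The bounds farthest from 0 were -0.63 for INCENP and 0.73 for CENPO. The groups did not overlap in 3 genes (NEK2, CENPA and KNL1), against 15.4% of all genes tested. Of the 5 further lists, 0 genes passed in this comparison.

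**Figure D4:**
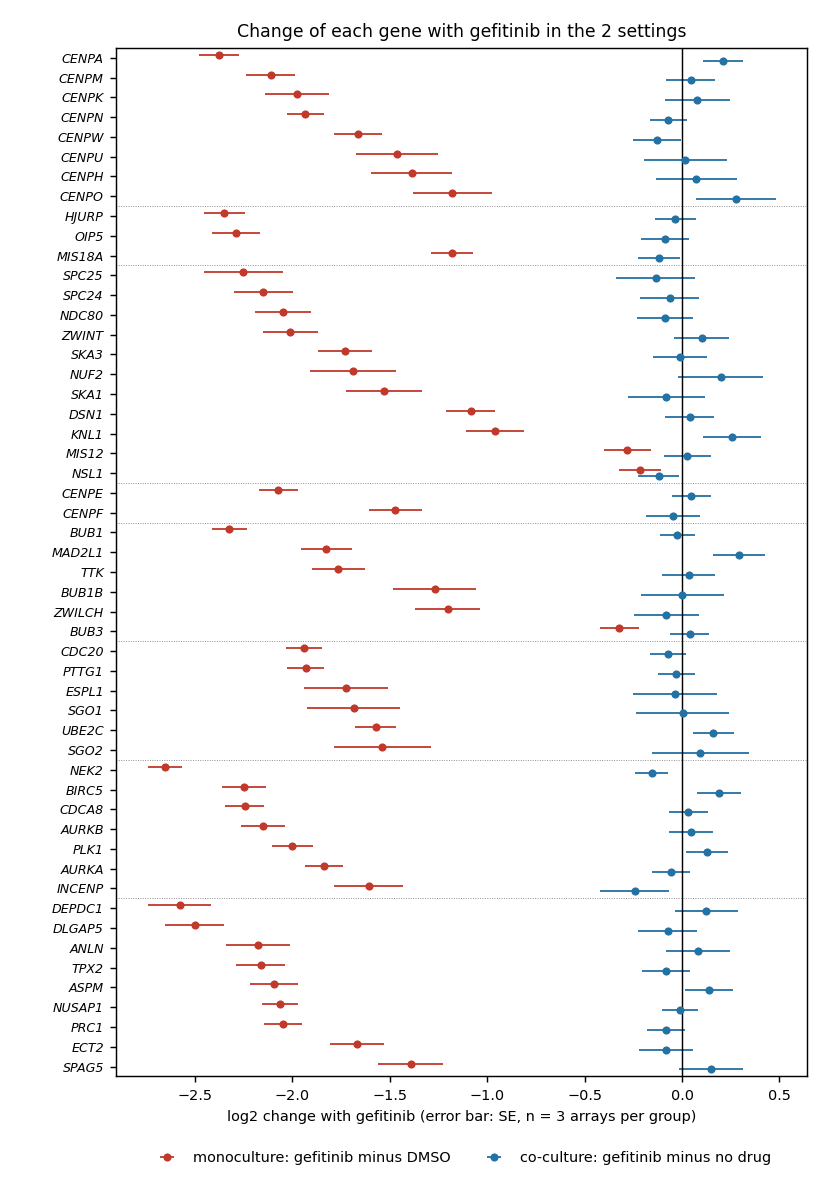
Log2 change with gefitinib of each of the 52 genes (rows, grouped by role), in monoculture against DMSO and in co-culture against no drug. Points are estimates and bars standard errors (n = 3 arrays per group), and monoculture points reach -2.65 while all co-culture points lie between -0.24 and 0.29.

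The difference between both gefitinib effects was tested as an interaction in the same model. It passed in 49 of the 52 genes, with a higher value in co-culture in all 49. Of all genes tested, 18% passed, 8.06% upward and 9.91% downward. The median interaction of the 52 genes was 1.88 on the log2 scale, against -0.03 for all genes. Among genes that passed it ran between 1.06 ± 0.15 for MIS18A (adjusted p = 0.00063) and 2.70 ± 0.23 for DEPDC1 (adjusted p = 2e-05). NSL1 (0.10 ± 0.15), MIS12 (0.31 ± 0.17) and BUB3 (0.36 ± 0.14, adjusted p = 0.109) did not pass, although BUB3 passed with median scaling (adjusted p = 0.0316). The interaction of INCENP (1.37 ± 0.25) did not pass with the mean of its probes (0.58, adjusted p = 0.12), and that of CENPH was 0.72 in place of 1.46 (adjusted p = 0.0373). When every kept probe was tested, 66 of the 79 passed upward. Among genes that passed on the chosen probe, some dimmer probes did not pass. These were CENPO (0.98, adjusted p = 0.198), SPC25 (0.99, 0.165), SGO1 (0.91, 0.0583) and MAD2L1 (1.29, 0.055). The dimmer probes of CENPH (-0.02) and INCENP (-0.20) did not pass either and had the opposite sign.

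Under gefitinib, cells with fibroblasts held higher levels of the set than cells alone. In gefitinib co-culture against gefitinib monoculture 50 of 52 genes rose and 0 fell, where 14.5% of all genes tested rose, 20.8% fell and 35.4% passed in all. This comparison shares its gefitinib monoculture arrays with the first one. The median log2 change was 1.90, against -0.05 for all genes, and 46 of the 52 rose by at least 2-fold. NEK2 rose by 3.20 ± 0.086 (adjusted p = 4.73e-09), DEPDC1 by 2.66 ± 0.16, BUB1 by 2.54 ± 0.090 and PLK1 by 2.45 ± 0.11. The other kept probe of NEK2 gave 1.54, and with the mean of both NEK2 rose by 2.37, less than those 3 genes. CENPH rose by 1.61 on its brighter probe and by 0.75 with the mean of its probes. The smallest rises that passed were BUB3 at 0.31 ± 0.10 (adjusted p = 0.0316) and KNL1 at 0.49 ± 0.15 (adjusted p = 0.0224). MIS12 (0.29 ± 0.12) and NSL1 (0.11 ± 0.11) did not pass, although MIS12 passed with median scaling (0.42, adjusted p = 0.032). The groups did not overlap in 51 genes, NSL1 being the other one, against 46.4% of all genes tested. The call of BUB3 ended without gefitinib co-culture array 3 (adjusted p = 0.109) or gefitinib monoculture array 1 or 3 (0.0562 and 0.109). That of KNL1 ended without gefitinib co-culture array 3 (0.0748) or gefitinib monoculture array 2 or 3 (0.0851 and 0.0528). Both calls ended when only these groups were fitted (adjusted p = 0.0784 for BUB3 and 0.0632 for KNL1). Without background correction KNL1 changed by 0.16 (adjusted p = 0.107) and on the authors' normalized values by 0.17 (adjusted p = 0.0816).

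Without drug, most of the set lay near its monoculture level when fibroblasts were present. In co-culture against DMSO monoculture 2 of the 52 genes rose and 1 fell, against 1.64% and 1.89% of all genes tested, 3.54% in all. With median scaling the split over all genes was 149 higher and 103 lower, in place of 223 and 257, and the set had 1 in each direction. The median log2 change was -0.04, against -0.03 for all genes. The groups did not overlap in 11 of the 52 genes, against 25% of all genes tested. NEK2 read 10.20, 10.22 and 10.35 in co-culture, all above the 9.59, 9.53 and 9.52 of DMSO monoculture, a change of 0.71 ± 0.086 (adjusted p = 0.00192). Its other kept probe changed by -0.28, and the call ended with the mean of both (0.21, adjusted p = 0.438). ECT2 read 10.13, 9.87 and 10.13 in co-culture, above the 9.50, 9.18 and 9.42 of DMSO monoculture (0.68 ± 0.14, adjusted p = 0.0256). KNL1 read 4.75, 4.73 and 4.77 in co-culture, below the 5.29, 5.49 and 5.64 of DMSO monoculture (-0.72 ± 0.15, adjusted p = 0.0261). The call of ECT2 ended without DMSO array 2 or 3 or co-culture array 1 or 3 (adjusted p = 0.0726 to 0.097). That of KNL1 ended without DMSO array 2 or 3 or any 1 co-culture array (adjusted p = 0.0664 to 0.102). ECT2 also missed the threshold with median scaling (adjusted p = 0.0524) and with only these groups fitted (adjusted p = 0.0676). KNL1 changed by -0.22 without background correction (adjusted p = 0.0855) and by -0.21 on the authors' normalized values (adjusted p = 0.103).

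**Figure D5:**
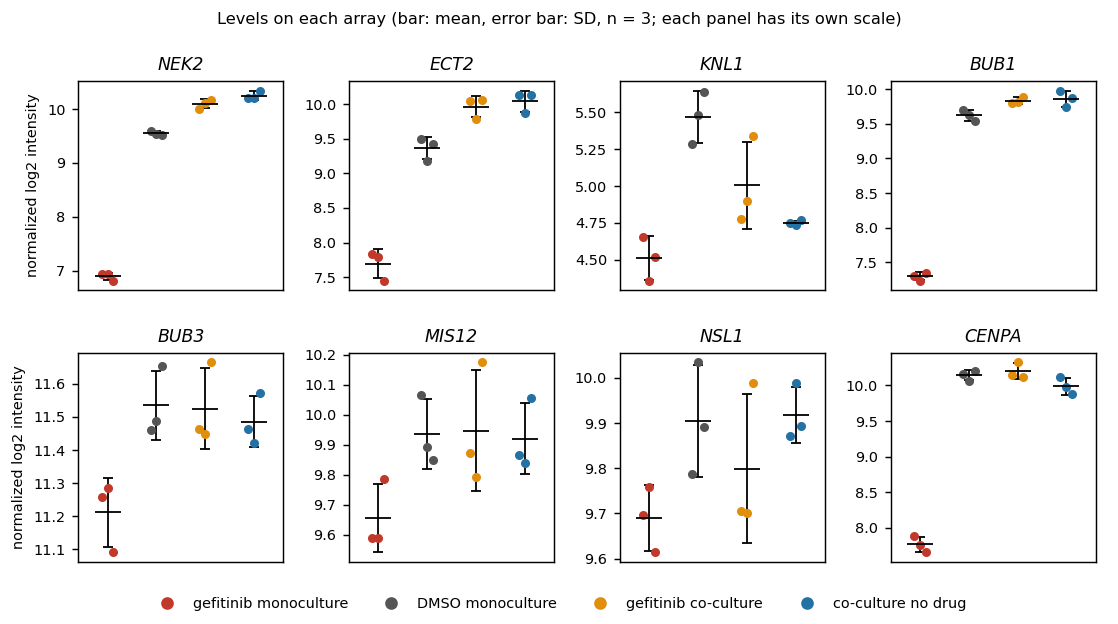
Normalized log2 intensity of 8 genes on each array in the 4 groups, with mean (long bar) and SD (n = 3), each panel on its own axis. NEK2 and ECT2 are lowest in gefitinib monoculture and higher in both co-culture groups than with DMSO, KNL1 is lower in co-culture than with DMSO, and BUB3, MIS12 and NSL1 span less than 1 log2 unit.

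Treated cells with fibroblasts stood close to untreated cells without them. In gefitinib co-culture against DMSO monoculture 3 of the 52 genes rose and 0 fell, where 1.24% of all genes tested rose, 1.81% fell and 3.06% passed in all. These were NEK2 at 0.55 ± 0.086 (adjusted p = 0.00677), ECT2 at 0.60 ± 0.14 (adjusted p = 0.0447) and PLK1 at 0.44 ± 0.11 (adjusted p = 0.0487). The median log2 change was -0.01, against -0.03 for all genes, and the groups did not overlap in 15 of the 52 genes, against 23.9% of all. The call of PLK1 ended when any 1 of these 6 arrays was left out (adjusted p = 0.0596 to 0.166). That of ECT2 ended without any 1 DMSO array or gefitinib co-culture array 1 or 3 (0.0697 to 0.149), and that of NEK2 with the mean of its probes (0.12, adjusted p = 0.696). With only these groups fitted none of the 3 passed (adjusted p = 0.0604 for NEK2, 0.0992 for ECT2 and 0.135 for PLK1). With median scaling ECT2 (adjusted p = 0.108) and PLK1 (0.101) missed the threshold, as they did with no filter on dim probes (0.0583 and 0.0627). With a replicate block PLK1 missed it too (adjusted p = 0.0846). Over the 4 groups, gefitinib monoculture had the lowest mean in 52 of 52 genes, whereas the order of the other 3 groups varied. Their most frequent order, found in 12 genes, put co-culture below gefitinib co-culture and DMSO monoculture highest.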

How the data were processed

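Scanner intensity values, not background-subtracted, and a detection p-value per probe were deposited by the authors, per the file headers. The other deposited table holds normalized intensity, made by the authors with a normalization not given in the sources used here. It is linear, with column medians of 104 to 105, and served as an alternative. For the 6 co-culture arrays, the scanner values did not follow the order of the probe names. Each row was given the probe whose 6 values in the authors' table it matched best. All matches were mutual (100% of 48106), and shuffled monoculture rows returned to their probe in 100% of 48104 cases. In comparisons with co-culture arrays, the run on the authors' values is therefore no independent check of which probe a row belongs to.

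Gene names came from the platform annotation. Background was corrected with neqc in limma 3.58.1 (R 4.3.3, offset 16), with quantile normalization and log2. One model with 4 group means was fitted to 12 arrays and 13577 genes, two-sided, with Benjamini-Hochberg adjustment. Errors on changes are standard errors. The fit was tested on simulated data. The members and gene lists were chosen with earlier results of these data known. All 52 members were described by role. From other lists, up to 3 genes each with the lowest and highest change in gefitinib minus DMSO monoculture were named. RAD21 and MYBL2, named among the other observations, lie outside this rule. Levels of different probes were not compared. The number of arrays limits the precision. Alternatives covered background, scaling, filters, probe choice, samples fitted, a replicate block and leaving out each array.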

Additional observations from a re-analysis of the deposited data

Results flagged for a closer look

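For 49 genes the effect of gefitinib in co-culture differed from its effect in monoculture by a test of the difference itself, the limma interaction with Benjamini-Hochberg adjustment over all genes tested. Each value is the log2 change with gefitinib in co-culture minus that in monoculture, and each was positive. Among centromeric chromatin and CCAN genes the interaction was 2.59 for CENPA, 2.16 for CENPM, 2.05 for CENPK, 1.86 for CENPN, 1.53 for CENPW, 1.48 for CENPU, 1.46 for CENPH and 1.45 for CENPO. Among CENP-A loading factors it was 2.31 for HJURP, 2.20 for OIP5 and 1.06 for MIS18A. KMN and Ska genes had 2.12 for SPC25, 2.11 for ZWINT, 2.09 for SPC24, 1.96 for NDC80, 1.89 for NUF2, 1.72 for SKA3, 1.45 for SKA1, 1.21 for KNL1 and 1.12 for DSN1. In the corona, CENPE had 2.12 and CENPF 1.42.

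Checkpoint genes had an interaction of 2.30 for BUB1, 2.12 for MAD2L1, 1.80 for TTK, 1.27 for BUB1B and 1.12 for ZWILCH. Genes of cohesion protection and sister separation had 1.90 for PTTG1, 1.87 for CDC20, 1.73 for UBE2C, 1.69 for SGO1, 1.69 for ESPL1 and 1.63 for SGO2. Mitotic kinases and passenger proteins had 2.50 for NEK2, 2.44 for BIRC5, 2.28 for CDCA8, 2.20 for AURKB, 2.13 for PLK1, 1.78 for AURKA and 1.37 for INCENP. Spindle and cytokinesis genes had 2.70 for DEPDC1, 2.43 for DLGAP5, 2.26 for ANLN, 2.23 for ASPM, 2.08 for TPX2, 2.05 for NUSAP1, 1.97 for PRC1, 1.59 for ECT2 and 1.54 for SPAG5. The values of KNL1 and SPAG5 rest on a gefitinib monoculture level near background, and that of SPAG5 is nearer to a lower bound. That of KNL1 is not, since its level in co-culture without drug (mean 4.75) was also low and a fall there could hardly be seen. Each of the 2 effects compared here lies within 1 set of arrays, but their difference is one between the sets. Co-culture and any difference in handling between the monoculture and co-culture arrays therefore cannot be told apart, in the levels or in the interaction.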

How the results depend on the processing

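No change of a single gene that passed the test changed sign under any alternative run. In gefitinib minus DMSO monoculture the median log2 change of the 52 genes was -1.38 both without background correction and on the authors' normalized values. It was -2.02 with median scaling, -1.93 with genes detected on all 12 arrays, -1.79 with the mean of the kept probes and -1.91 to -1.85 when 1 array was left out. In gefitinib co-culture minus gefitinib monoculture the median was 1.44 without background correction, 2.00 with median scaling, 1.42 on the authors' values and 1.87 to 1.94 with 1 array left out. For the interaction it was 1.39, 1.95 and 1.38 under the same settings, 1.83 with the mean of probes and 1.83 to 1.92 with 1 array left out. The cause was not tested.

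In gefitinib co-culture minus co-culture 0 of the 52 genes passed under every alternative run. Over all genes 350 passed without background correction, 346 on the authors' values, 61 with only these groups fitted and 124 to 171 with 1 array left out, of which co-culture array 1 (124) and gefitinib co-culture array 3 (129) moved the count by over 1.5 times. The median of the 52 genes was -0.0446 with median scaling and -0.0322 to 0.0440 with 1 array left out. In co-culture minus DMSO monoculture 4 of the 52 genes rose without background correction and on the authors' values, where 2 fell on the latter. Only 1 rose with median scaling, with the mean of probes and with only these groups fitted. With genes detected on all 12 arrays 3 rose and 0 fell, since that filter removed KNL1 before the test, and CENPW passed (0.47, adjusted p = 0.0327). With 1 array left out, 1 to 2 rose and 0 to 1 fell. The median was -0.0147 with median scaling, -0.0148 with the mean of probes, and -0.0680 to -0.0110 with 1 array left out. Over all genes 912, 252, 903, 725 and 155 passed without background correction, with median scaling, on the authors' values, with genes detected on all arrays and with only these groups fitted, and 154 to 300 with 1 array left out.

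In gefitinib co-culture minus DMSO monoculture 5 of the 52 genes rose and 2 fell without background correction, and 2 fell on the authors' values. With median scaling and with no filter on dim probes 1 rose, with only these groups fitted 0 rose, and with 1 array left out 1 to 2 rose and 0 to 1 fell. The median was -0.0597 to 0.0087 with 1 array left out. Over all genes 828, 853, 641 and 144 passed without background correction, on the authors' values, with genes detected on all arrays and with only these groups fitted, and 175 to 316 with 1 array left out. Correlations of deviations between same-numbered arrays of different groups ran between -0.05 and 0.10. The 0.10 came from gefitinib co-culture with co-culture without drug, where arrays with different numbers gave -0.15 to 0.06. These low correlations cannot show whether the numbers pair the samples. With a replicate block 50 genes fell in gefitinib minus DMSO monoculture, as without it, the interaction passed in 49, and the adjusted p of PLK1 in gefitinib co-culture minus DMSO monoculture was 0.0846. No other call in the set ended under the block.

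KNL1 and SPAG5 were each detected on 1 of 3 gefitinib monoculture arrays, and SPC25 and ZWILCH on 2 of 3. The falls of KNL1 and SPAG5 and the interaction of SPAG5 are therefore nearer to lower bounds than to measured sizes. The interaction of KNL1 is not, since its level in co-culture without drug (mean 4.75) was also low.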

Other observations

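Some genes of the set have a second probe that read differently, chosen here after their values were seen. MAD2L1's dimmer probe changed by 0.97 in co-culture minus DMSO monoculture, against -0.22 on the brighter one, and neither passed the test over all kept probes. In gefitinib minus DMSO monoculture the MAD2L1 probes had the same sign, at -1.08 for the dimmer and -1.83 for the brighter. Of the 27 other kept probes, 26 had the sign of the chosen probe in that comparison, whereas in co-culture minus DMSO monoculture 9 had it and 18 had the opposite sign.

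RAD21, the cleavable subunit of cohesin and no member of the set, was also chosen after its values were seen. It changed by -0.42 ± 0.13 in gefitinib minus DMSO monoculture (adjusted p = 0.0329) and rose by 1.14 ± 0.13 in co-culture minus DMSO monoculture (adjusted p = 0.00165). In gefitinib co-culture minus DMSO monoculture it rose by 0.98 ± 0.13 (adjusted p = 0.00339). No other gene of the 5 further lists passed in these co-culture comparisons with DMSO monoculture.

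Under gefitinib, FOXM1 rose by 2.60 in gefitinib co-culture minus gefitinib monoculture (adjusted p = 4.09e-07) and MYBL2, the B-MYB partner of MuvB, by 0.83 (adjusted p = 0.0456). RBL2 changed by -0.39 in the same comparison (adjusted p = 0.0267), and WEE1, the kinase that holds CDK1 inactive, by -0.59 (adjusted p = 0.00845). These genes, too, were chosen after their values were seen. Of the 11 genes of MuvB, DREAM and FOXM1, 6 rose and 2 fell, with RBBP4 lowest at -0.53. Among 32 other mitotic regulators 27 rose and 1, WEE1, fell. Over all genes tested 14.5% rose and 20.8% fell. MYBL2 had a low level in gefitinib monoculture (mean 4.60).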
